A study of Mus musculus with 8 samples.

Results

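The 10 genes described here encode the core of the glutathione, NRF2 and ferroptosis system: the transcription factor NRF2 (Nfe2l2) and its inhibitor (Keap1), the cystine importer (Slc7a11), both subunits of glutamate-cysteine ligase (Gclc, Gclm), 3 inducible enzymes (Hmox1, Nqo1, Txnrd1) and a pair of lipid genes (Gpx4, Acsl4). They were chosen by name, with earlier results of these libraries known. By their Entrez identifiers they were found in the count matrix, 10 genes of the 27179 it holds. Expression was measured by RNA-seq in 8 libraries from 4 mouse mammary tumour lines that derive from BALB/c mice, with 2 libraries of each line. 4T1.2, which spreads to bone, and 4T1 are highly metastatic, whereas 66cl4 (spelled 66c14 in the labels) and 67NR have low metastatic potential. All lines were grown untreated in αMEM with serum. No agent, transgene or deletion separates the groups, each line is a single cell line, and a difference between lines therefore covers everything in which those lines differ. Totals ran from 37159840 to 66269681 counts per library. Whether the 2 libraries of a line came from separate cultures is not stated beyond their being biological replicates, so p-values measure the spread between these libraries.

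Glutathione is built from glutamate, cysteine and glycine, and in many tumour cells the cysteine enters as cystine through the exchanger xCT. NRF2 is held at low levels by KEAP1, an adaptor that marks it for degradation. When oxidants or electrophiles modify KEAP1, NRF2 accumulates and binds antioxidant response elements near genes for glutathione synthesis, quinone reduction and haem breakdown, so the activity of NRF2 is set largely after transcription. Ferroptosis is an iron-dependent death caused by peroxidised membrane lipids. ACSL4 loads polyunsaturated fatty acids into those lipids and GPX4, a selenoenzyme that uses glutathione, reduces their peroxides.

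The first question was how the 2 highly metastatic lines differed from the 2 lines of low metastatic potential. In the pooled comparison, of the average of the first pair with the average of the second, the genes did not move one way. Slc7a11, Acsl4 and Gpx4 were 4.45-fold, 3.64-fold and 2.52-fold higher in the 4T1/4T1.2 pair, while Hmox1, Gclm and Gclc were 5.30-fold, 2.79-fold and 2.56-fold lower. Keap1 and Nqo1 were higher by 1.13-fold and 1.21-fold, Txnrd1 was 1.21-fold lower, and Nfe2l2 itself had a log2 fold change of 0.0056. By edgeR's quasi-likelihood test with adjustment over all genes, 9 of the 10 genes passed an adjusted p of 0.05, 5 higher and 4 lower. Of all 13924 genes tested 76.7% passed the same test, so a call alone does not set these genes apart. The 4 libraries of one pair lay apart from the 4 of the other for 7 of the 10 genes, 4 higher and 3 lower, beside 55.5% of all genes.

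**Figure D1:**
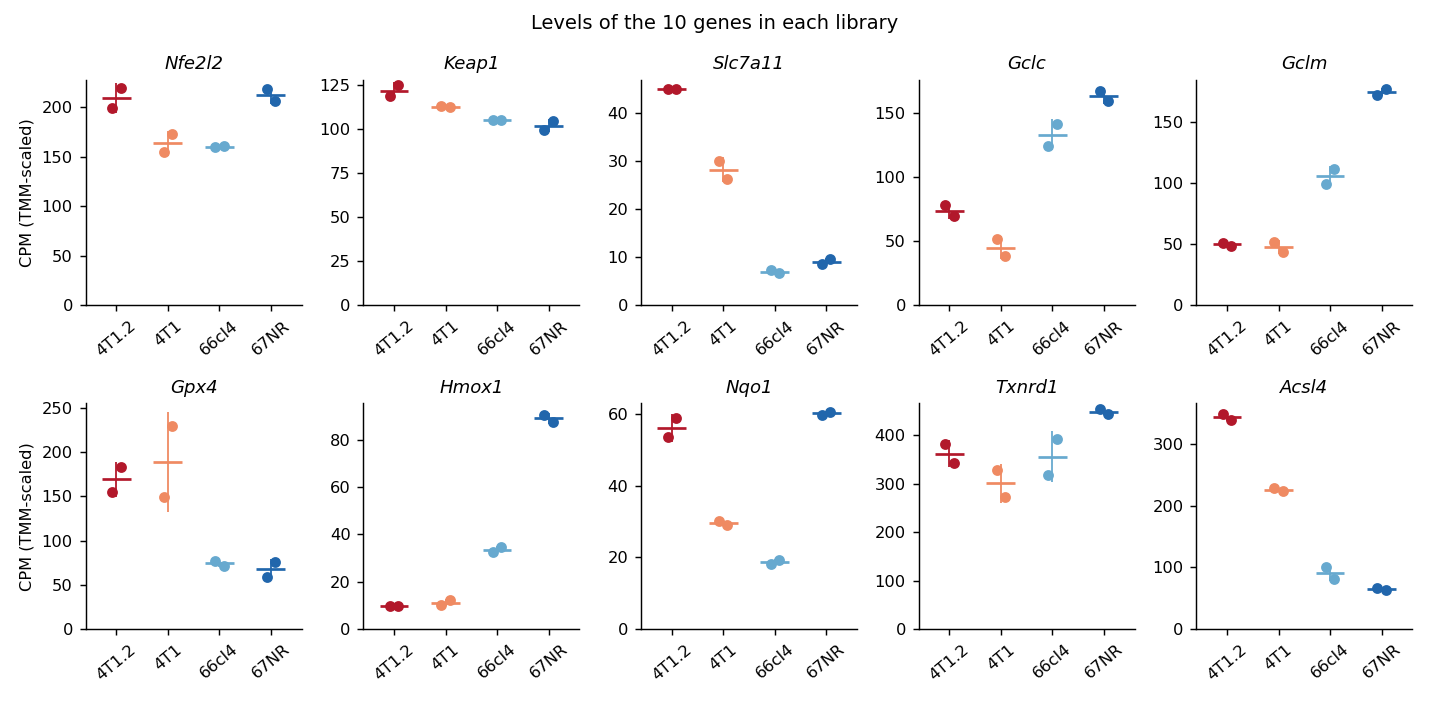
Levels in CPM (counts scaled to the size of each library with TMM factors, vertical axis from 0) of the 10 genes in each library. Points are the 2 libraries of a line, horizontal bars their mean and vertical bars 1 SD. Slc7a11 and Acsl4 fell in the order 4T1.2, 4T1 and then the other lines, Hmox1 and Gclm were highest in 67NR, and Nqo1 was about as high in 4T1.2 as in 67NR.

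Nfe2l2 (chromosome 2) was measured at 198 and 219 CPM in 4T1.2, 155 and 172 CPM in 4T1, 160 and 160 CPM in 66cl4 and 218 and 206 CPM in 67NR. The high lines were 4T1.2 and 67NR and the low lines 4T1 and 66cl4, one of each pair. Between 4T1.2 and 67NR the log2 difference was -0.020 (SE 0.091, adjusted p = 0.858), and between 4T1 and 66cl4 it was 0.031 (SE 0.092, adjusted p = 0.775). The gap between those levels passed the test, with 4T1.2 over 4T1 at 0.35 (SE 0.092, adjusted p = 0.0240) and 66cl4 over 67NR at -0.41 (SE 0.092, adjusted p = 0.00558). In bulk libraries a lower level in each cell and fewer cells with the transcript cannot be told apart.

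The call for Nfe2l2 between 4T1.2 and 4T1 lay near the threshold. With either 67NR library left out the difference itself stayed at 0.35, since 67NR is not in this comparison, and only its test changed. The difference missed the threshold without 4T1.2 replicate 2 (log2 0.27) or 4T1 replicate 1 (0.28), and also without either 67NR library. The difference between 66cl4 and 67NR missed it without 67NR replicate 1 (0.0541). Genes on chromosome 2 as a whole also stood higher in 4T1.2 relative to 4T1, at a median log2 difference of 0.27 over 1110 genes against 0.00 over all genes; the part of this in the Nfe2l2 value was not tested.

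The promoter of Nfe2l2 holds one match to the core of the antioxidant response element (ARE), written TGACNNNGC and searched on both strands. It lies 240 bases before the transcript start, at chr2:75704895-75704903 of GRCm38 on the minus strand. The 29 bases around it are shown because Nfe2l2 is the gene whose product binds such elements, with the match in capitals.
Nfe2l2: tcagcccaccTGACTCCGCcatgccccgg

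Keap1 (chromosome 9) varied least. Its level was 118 and 125 CPM in 4T1.2, 113 and 112 CPM in 4T1, 105 and 105 CPM in 66cl4 and 99.2 and 104 CPM in 67NR. The lines kept the order 4T1.2, 4T1, 66cl4 and 67NR, yet no neighbours in that order differed (adjusted p from 0.273 to 0.692), and the ends differed by a log2 of 0.26 (SE 0.079, adjusted p = 0.0158). The pooled difference of 0.18 (SE 0.056, adjusted p = 0.0145) missed the threshold without 4T1.2 replicate 2 (0.0569) or 67NR replicate 1 (0.0655), and the difference between 4T1.2 and 67NR missed it without the same libraries (0.118 and 0.112). An antisense gene, Gm16754, overlaps 10.9% of the exonic bases of Keap1, and whether counting used strand is not given in the sources used here.

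Of the 18 genes listed as NRF2 regulators, all were tested and 9 were higher and 6 lower in the 4T1/4T1.2 pair (median log2 fold change 0.15, against -0.013 over all genes). Thus 83.3% were called, beside 76.7% of all genes (38.1% higher and 38.6% lower). Maff, a small MAF partner of NRF2, was 1.66-fold higher (adjusted p = 0.000130) and Rbx1, the RING subunit of the ligase that KEAP1 serves, 1.53-fold higher (adjusted p = 3.6e-05). Amer1 was 2.75-fold lower (adjusted p = 1.37e-07), and Btrc, which recognises NRF2 after phosphorylation by GSK3, 2.00-fold lower (adjusted p = 2.16e-07). In 66cl4, Gsk3b and Sqstm1, a receptor of autophagy that can sequester KEAP1, were 1.78-fold and 1.71-fold higher than in 67NR (adjusted p = 0.000388 and 0.000337).

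Slc7a11 (chromosome 3), the light chain of xCT, was the least abundant of the genes per length in every library, between 0.730 and 4.87 RPKM, the CPM divided by the gene length in kilobases. Its level was 44.8 and 44.9 CPM in 4T1.2, 29.9 and 26.3 CPM in 4T1, 7.27 and 6.74 CPM in 66cl4 and 8.51 and 9.61 CPM in 67NR. Every 4T1.2 and 4T1 library was above every library of the other lines. The pooled log2 fold change was 2.15 (SE 0.082, adjusted p = 5.28e-09), and the comparisons of single lines across the pairs ran from 1.63 (4T1 over 67NR) to 2.68 (4T1.2 over 66cl4).

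Slc7a11 also differed within both pairs. It was 1.59-fold higher in 4T1.2 than in 4T1 (log2 0.67, SE 0.11, adjusted p = 0.00231). Between 66cl4 and 67NR the difference was -0.38 (SE 0.12, adjusted p = 0.0278), and this call was lost without 66cl4 replicate 1 (0.0569), 66cl4 replicate 2 (0.129) or 67NR replicate 2 (0.195). Chromosome 3, which carries both Slc7a11 and Gclm, stood lower as a whole in 66cl4 than in 67NR, with a median of -0.59 over 668 genes, so Slc7a11 lay 0.21 above its chromosome there. The part of the chromosome in the difference was not tested.

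The 250 bases before a transcript start of Slc7a11, at chr3:50443614-50443863 of GRCm38 on the minus strand, are shown because Slc7a11 is a target of ATF4 as well as of NRF2. The start lies inside the annotated gene, which begins farther upstream. Capitals mark both matches to the core of the CCAAT/enhancer-binding protein and ATF response element, written TGATGNAA and searched on both strands. The matches start 66 and 47 bases before the transcript start and lie on opposite strands. The search covered windows of 300 bases, 250 before and 50 after each start. Of 32851 such windows 3.97% hold this core, and among the 13 windows of the 8 genes with a promoter entry it was found in that of Slc7a11 alone. No match to the ARE core was found in this window, which says nothing of elements farther away.
Slc7a11: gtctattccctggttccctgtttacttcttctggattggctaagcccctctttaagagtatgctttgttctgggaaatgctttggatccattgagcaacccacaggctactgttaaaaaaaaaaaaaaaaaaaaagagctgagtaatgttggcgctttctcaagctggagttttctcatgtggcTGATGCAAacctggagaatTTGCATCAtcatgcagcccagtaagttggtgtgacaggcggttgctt

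Gclc (chromosome 9), the catalytic subunit of the rate-limiting ligase of glutathione synthesis, went the opposite way. Its level was 78.0 and 69.4 CPM in 4T1.2, 51.4 and 38.8 CPM in 4T1, 125 and 142 CPM in 66cl4 and 168 and 159 CPM in 67NR. All libraries of 66cl4 and 67NR were above those of 4T1.2 and 4T1. The pooled log2 fold change was -1.35 (SE 0.096, adjusted p = 6.27e-07). Within the pairs, 4T1.2 was 1.63-fold above 4T1 (adjusted p = 0.00568), and the difference of -0.29 between 66cl4 and 67NR (SE 0.13) did not pass the test (adjusted p = 0.0997).

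Gclm (chromosome 3), the modifier subunit that makes the ligase more efficient, was measured at 50.9 and 48.7 CPM in 4T1.2, 51.6 and 43.6 CPM in 4T1, 99.6 and 112 CPM in 66cl4 and 172 and 177 CPM in 67NR. The libraries of 4T1.2 and 4T1 overlapped, and those of 66cl4 and 67NR stood apart from them and from each other. The pooled log2 fold change was -1.48 (SE 0.074, adjusted p = 4.42e-08). Between 4T1.2 and 4T1 it was 0.065 (SE 0.10, adjusted p = 0.731), and 66cl4 was at -0.72 relative to 67NR (SE 0.10, adjusted p = 0.000375).

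That last value lay close to the rest of chromosome 3. Of the other chromosome 3 genes, 417 had a higher and 250 a lower value than Gclm in 66cl4 over 67NR, whereas in the pooled comparison 562 were higher and 105 lower. In the pooled comparison the chromosome had a median of -0.35. Of the 6291 exonic bases of Gclm in GENCODE M21, 4.71% overlap Gm17494 on the opposite strand and 3.88% the pseudogene Gm6061 on the same strand. The gene length given with the counts is 1470 bases, and whether the overlaps fall within it was not tested.

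The promoter window of Gclm holds an ARE core 134 bases before a transcript start, at chr3:122245423-122245431 of GRCm38. The sequence is on the plus strand, and the core is read here as its reverse complement. This start lies inside the annotated gene, which begins farther upstream, at position 122245487. The 29 bases around the Gclm core are shown with the match in capitals, beside those of Txnrd1. The Txnrd1 match lies 92 bases before one of its starts, at chr10:82859114-82859122, again reversed. The core was found in 3 of the 13 windows of the 8 genes with an entry (1 each of Nfe2l2, Gclm and Txnrd1) and in 12.4% of all 32851 windows.
Gclm: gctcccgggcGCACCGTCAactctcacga
Txnrd1: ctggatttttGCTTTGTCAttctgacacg

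Per length, Gclc was below Gclm in every library, and their ratio did not follow the pairs. The RPKM of Gclc over that of Gclm was 0.657 and 0.611 for 4T1.2, 0.427 and 0.382 for 4T1, 0.537 and 0.545 for 66cl4 and 0.418 and 0.386 for 67NR. Thus 4T1.2 and 66cl4 had the higher ratio of Gclc to Gclm transcript, and the proteins were not measured. The ratio of Slc7a11 to Slc3a2, the heavy chain that carries xCT to the membrane, was 0.0906 and 0.0930 for 4T1.2, 0.0740 and 0.0598 for 4T1, 0.00583 and 0.00537 for 66cl4 and 0.0108 and 0.0120 for 67NR. Here every library of the 4T1/4T1.2 pair was above the others, with Slc7a11 higher and Slc3a2 lower there. Slc3a2 was singled out after its values were seen. It was at 130 to 159 CPM in the 4T1/4T1.2 pair and 252 to 402 CPM in the other lines, and it also pairs with other light chains.

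**Figure D2:**
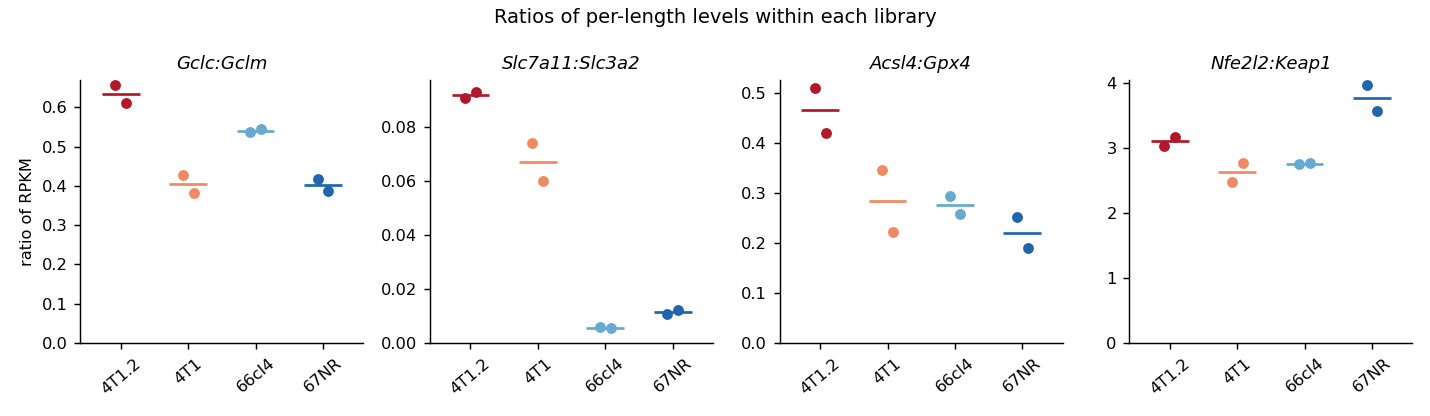
Ratios of per-length levels (RPKM, vertical axes from 0) within each library, with points for the 2 libraries of a line and bars for their mean. Gclc:Gclm was highest in 4T1.2 (0.657 and 0.611), Slc7a11:Slc3a2 separated 4T1.2 and 4T1 from 66cl4 and 67NR, Acsl4:Gpx4 was highest in 4T1.2 (0.511 and 0.422), and Nfe2l2:Keap1 in 67NR (3.98 and 3.57).

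The 22 genes listed for cystine supply and glutathione synthesis were all tested. In the 4T1/4T1.2 pair 11 were higher and 7 lower (81.8% called, beside 76.7% of all genes), with a median log2 fold change of 0.22. Cth, the cystathionine gamma-lyase that makes cysteine from cystathionine, had the largest rise of those named, 7.11-fold (adjusted p = 2.92e-10), from 11.5 to 13.5 CPM in 66cl4 and 67NR to 72.2 to 111 CPM in 4T1 and 4T1.2. Cbs, which makes the cystathionine that Cth uses and was looked up after its values were seen, went the other way, with 2 to 11 counts per library in the 4T1/4T1.2 pair and 11 to 36 in the other lines (log2 fold change -2.21, adjusted p = 0.000171). Cbs was near the floor, at 0.0353 to 0.180 CPM in the 4T1/4T1.2 pair and 0.259 to 0.803 CPM in the other lines. These levels are below the mean of 5 CPM asked of genes named by rule. As Slc3a2 and Cbs were both picked by their values, no pattern of uptake or synthesis is read from them. Gsr, the reductase that restores glutathione, was 1.86-fold lower in 66cl4 than in 67NR (adjusted p = 0.000360).

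Hmox1 (chromosome 8), haem oxygenase-1, which opens haem and releases its iron, had the largest pooled difference of the 10. Its level was 9.53 and 9.53 CPM in 4T1.2, 10.1 and 12.2 CPM in 4T1, 32.4 and 34.6 CPM in 66cl4 and 90.7 and 87.4 CPM in 67NR. The lines formed 3 steps, with 67NR above 66cl4 and both above the 4T1/4T1.2 pair. The pooled log2 fold change was -2.41 (SE 0.080, adjusted p = 1.78e-09), and 67NR was 2.66-fold above 66cl4 (adjusted p = 7.43e-06). Between 4T1.2 and 4T1 the difference was -0.22 (SE 0.11, adjusted p = 0.206), and it passed the threshold when 4T1 replicate 1 was left out (0.0451).

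Nqo1 (chromosome 8), a quinone reductase often used as a readout of NRF2, followed another order. Its level was 53.4 and 59.0 CPM in 4T1.2, 30.2 and 28.9 CPM in 4T1, 18.2 and 19.3 CPM in 66cl4 and 59.8 and 60.6 CPM in 67NR. As for Nfe2l2, 4T1.2 and 67NR were the high lines, and the pooled libraries overlapped although the fitted means differed by 0.28 (SE 0.065, adjusted p = 0.00290). Within the pairs the differences were larger. 4T1.2 was 1.90-fold above 4T1 (adjusted p = 0.000150) and 67NR 3.22-fold above 66cl4 (adjusted p = 1.3e-06), while 4T1.2 and 67NR differed by -0.099 (SE 0.091, adjusted p = 0.354).

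Genes of chromosome 8 had a median of -0.30 in 66cl4 over 67NR over 750 genes. Hmox1 lay 1.11 and Nqo1 1.38 log2 units below that median, and 53 and 34 genes of that chromosome, respectively, had lower values. The ratio of Hmox1 to Nqo1 in RPKM was 0.176 and 0.159 for 4T1.2, 0.330 and 0.416 for 4T1, 1.75 and 1.77 for 66cl4 and 1.49 and 1.42 for 67NR. These 2 genes, both known targets of NRF2, thus differed by line in opposite balance, with Nqo1 the more abundant per length in the 4T1/4T1.2 pair and Hmox1 in the other lines.

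**Figure D3:**
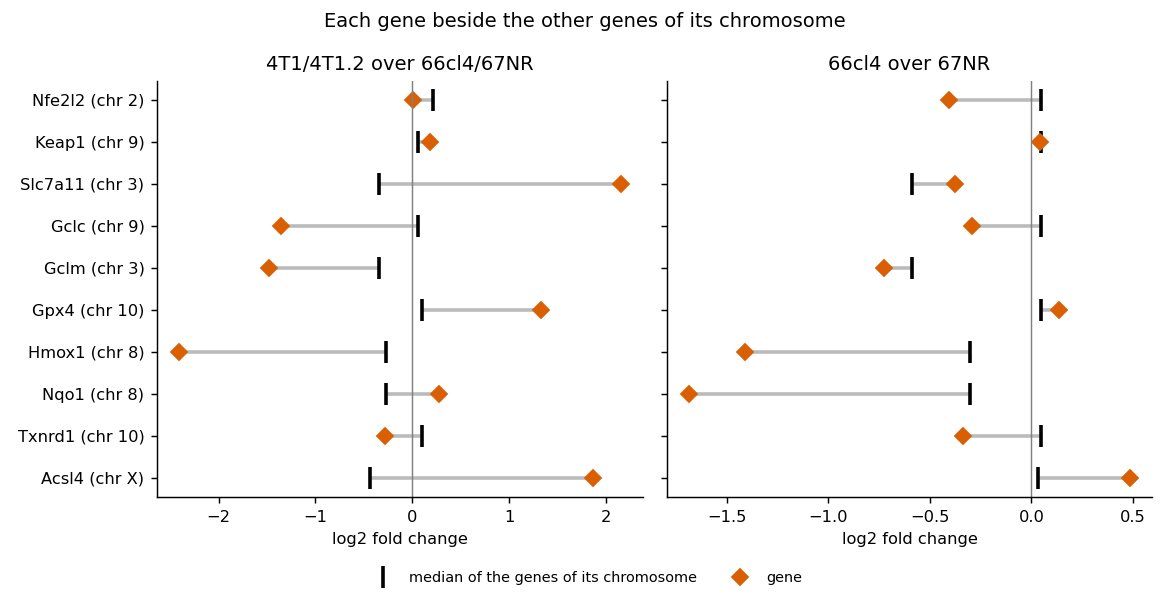
Log2 fold change of each gene (diamonds) beside the median of all tested genes on its chromosome (ticks), for the pooled comparison (left) and 66cl4 over 67NR (right). For most genes the diamond lies away from the tick, but in 66cl4 over 67NR Keap1 (0.044) lay near the median of chromosome 9 (0.047), Gpx4 (0.13) near that of chromosome 10 (0.049) and Gclm (-0.72) near that of chromosome 3 (-0.59).

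Txnrd1 (chromosome 10), the cytosolic thioredoxin reductase, was abundant in all lines. Its level was 382 and 342 CPM in 4T1.2, 329 and 272 CPM in 4T1, 319 and 393 CPM in 66cl4 and 454 and 443 CPM in 67NR. Libraries of 66cl4 overlapped those of 4T1.2 and of 4T1, and 67NR stood above all 3 lines. No neighbours in the order 67NR, 4T1.2, 66cl4 and 4T1 differed by the test (adjusted p from 0.0525 to 0.874), and 67NR was 1.49-fold above 4T1 (adjusted p = 0.00261). The pooled difference of -0.28 (SE 0.090, adjusted p = 0.0174) was lost without 4T1.2 replicate 2 (0.0639), 66cl4 replicate 2 (0.0718) or 67NR replicate 1 (0.0572). The step from 67NR to 4T1.2 passed with DESeq2 (adjusted p = 0.0448), limma-voom (0.0484) or no filter on low counts (0.0361), and when either library of 4T1 or of 66cl4 was left out (0.0183 to 0.0371). The step from 66cl4 to 4T1 passed without 4T1 replicate 1 (0.0213) or 66cl4 replicate 1 (0.0351).

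In the thioredoxin and peroxiredoxin list, 6 of 17 genes tested were higher and 6 lower in the 4T1/4T1.2 pair. Thus 70.6% were called, beside 76.7% of all genes. The mitochondrial reductase Txnrd2 was 2.05-fold higher (adjusted p = 2.31e-06), against the lower Txnrd1, and the peroxiredoxin Prdx2 was 1.60-fold higher (adjusted p = 0.000140). The secreted superoxide dismutase Sod3 was at 45.7 to 52.0 CPM in 66cl4 and 67NR and at 0.213 to 1.09 CPM in 4T1 and 4T1.2. Txnip, which binds thioredoxin, was 2.85-fold lower in the 4T1/4T1.2 pair (adjusted p = 1.37e-08).

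Of 26 other NRF2 target genes, 25 were tested, of which 16 were lower and 8 higher in the 4T1/4T1.2 pair, with a median log2 fold change of -0.40 against -0.013 over all genes. Over all genes 38.6% were lower and 38.1% higher. The list was written with earlier results of these libraries known, and its genes spread widely. Ephx1, an epoxide hydrolase, was 17.8-fold lower (adjusted p = 6.16e-10), whereas the carbonyl reductase Cbr1 was 42.7-fold higher (adjusted p = 2.23e-10). Abcc3, an exporter of conjugates, was at 42.1 to 95.6 CPM in the 4T1/4T1.2 pair and 0.191 to 0.376 CPM in the other lines. Between 66cl4 and 67NR, 1 of the 25 was higher (Aox1, 1.54-fold, adjusted p = 0.000407) and 11 were lower in 66cl4, among them Hmox1 and Nqo1, beside 22.2% of all genes higher and 22.4% lower in that comparison.

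Among 34 glutathione peroxidases, transferases and glutaredoxins, 29 were tested and 10 were higher and 12 lower in the 4T1/4T1.2 pair. Of the tested genes 75.9% were called, beside 76.7% of all genes. Mgst2, a microsomal transferase, was 3.98-fold higher (adjusted p = 2.12e-07), although it was also 6.82-fold lower in 66cl4 than in 67NR (adjusted p = 3.35e-06). The cytosolic transferases Gstm1 and Gstm5 were lower, with log2 fold changes of -1.68 (adjusted p = 6.38e-08) and -1.68 (adjusted p = 2.93e-06). Of the 75-base stretches of Gstm1, 11.7% also occur in other genes, so its counts can hold reads of related genes. Glrx, a glutaredoxin, was 2.96-fold higher in 66cl4 than in 67NR (adjusted p = 2.41e-05).

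Gpx4 (chromosome 10) was the most abundant of the 10 per length in every library of 4T1.2 and 4T1, at 124 to 191 RPKM. It was measured at 155 and 183 CPM in 4T1.2, 149 and 229 CPM in 4T1, 77.0 and 71.7 CPM in 66cl4 and 59.4 and 76.0 CPM in 67NR. Each library of the 4T1/4T1.2 pair was above each of the other lines, although the libraries of 4T1 differed from each other more than for any other of the genes. The pooled log2 fold change was 1.33 (SE 0.14, adjusted p = 1.01e-05). Between 4T1.2 and 4T1 the difference of -0.16 (SE 0.19, adjusted p = 0.617) ran from -0.44 to 0.18 as single libraries were left out and passed the threshold without 4T1 replicate 1 (0.0480). The log2 difference of 66cl4 over 67NR was 0.13 (SE 0.19, adjusted p = 0.602). Of the 75-base stretches of Gpx4, 29.8% also occur in a pseudogene, Gpx4-ps2, so some of its reads may have been left uncounted or assigned elsewhere.

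Acsl4 (chromosome X) was measured at 349 and 339 CPM in 4T1.2, 228 and 224 CPM in 4T1, 99.8 and 81.5 CPM in 66cl4 and 65.9 and 63.4 CPM in 67NR. The lines did not overlap and each step of this order passed the test, 4T1.2 over 4T1 at 0.61 (adjusted p = 0.00284), 4T1 over 66cl4 at 1.32 (adjusted p = 2.01e-06) and 66cl4 over 67NR at 0.49 (adjusted p = 0.00382). The pooled log2 fold change was 1.87 (SE 0.074, adjusted p = 7.28e-09). Chromosome X as a whole had a pooled median of -0.44 over 440 genes, so Acsl4 ran against it.

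Thus a gene that loads oxidisable fatty acids and the gene that repairs their peroxides were both higher in the highly metastatic lines. The RPKM of Acsl4 over that of Gpx4 was 0.511 and 0.422 for 4T1.2, 0.347 and 0.222 for 4T1, 0.295 and 0.258 for 66cl4 and 0.253 and 0.190 for 67NR. The 4T1.2 libraries had the highest ratios, and the range of 4T1 overlapped those of 66cl4 and of 67NR.

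In the lipid arm of ferroptosis, 18 of 22 listed genes were tested and 8 were higher and 7 lower in the 4T1/4T1.2 pair. Of the tested genes 83.3% were called, beside 76.7% of all genes. Por, an oxidoreductase that can start lipid peroxidation, was 2.18-fold higher (adjusted p = 1.06e-07) and in 66cl4 also 1.89-fold above 67NR (adjusted p = 3.54e-05). Mboat1 and Mboat2, acyltransferases that put monounsaturated fatty acids into phospholipids, were both lower. Mboat1 was 2.32-fold lower (adjusted p = 2.83e-07), and Mboat2 had 1 to 15 counts per library in the 4T1/4T1.2 pair against 740 to 1878 in 66cl4 and 67NR. Between 66cl4 and 67NR the desaturases Fads1 and Scd2 were lower in 66cl4, by 1.66-fold and 1.57-fold (adjusted p = 5.38e-05 and 0.000470).

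Among 15 genes of ferroptosis defence outside glutathione, 5 were higher and 6 lower in the 4T1/4T1.2 pair (73.3% called, beside 76.7% of all genes). Pts, an enzyme of tetrahydrobiopterin synthesis, was 2.77-fold higher (adjusted p = 2.71e-07). Dhcr7, which consumes the radical-trapping sterol 7-dehydrocholesterol, was 5.44-fold lower (adjusted p = 2.05e-10) and Coq8a, of coenzyme Q synthesis, 2.41-fold lower (adjusted p = 5.15e-07). Aifm2, the gene of the ferroptosis suppressor FSP1, was looked up after its values were seen and lay between 36.9 and 49.4 CPM in all libraries, with a pooled difference of 0.10 (adjusted p = 0.157).

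Iron genes showed 6 higher and 9 lower of 18 tested, of 20 listed (83.3% called, beside 76.7% of all genes). Tfrc, the transferrin receptor, was 1.64-fold higher in the 4T1/4T1.2 pair (adjusted p = 1.09e-05). Heph, a ferroxidase that works with the iron exporter, had 0 to 3 counts per library there and 1167 to 2928 in 66cl4 and 67NR. The exporter itself, Slc40a1 (ferroportin), was added after its values were seen and had 0 and 1 counts in 4T1.2, 29 and 37 in 4T1 and 224 to 598 in the other lines. Steap3, a ferrireductase, was 4.99-fold lower in 66cl4 than in 67NR (adjusted p = 8.46e-07).

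**Figure D4:**
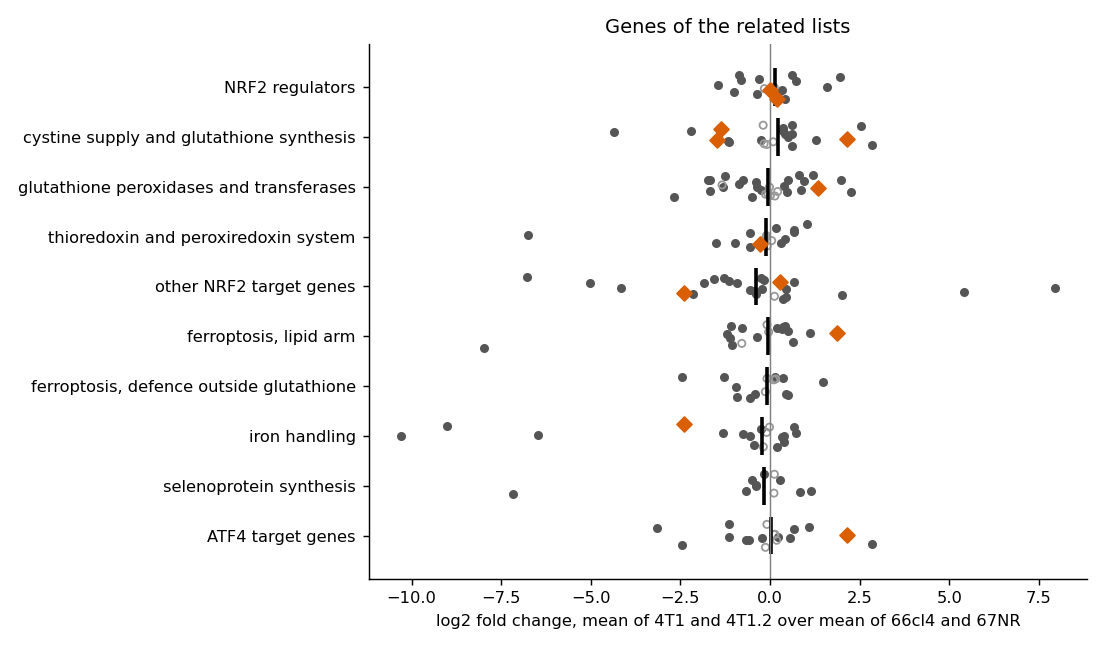
Log2 fold change in the pooled comparison (positive values are higher in the 4T1/4T1.2 pair) for each tested gene of 10 related lists. Filled circles passed an adjusted p of 0.05, open circles did not, diamonds are the 10 genes described here, black ticks are list medians, and the vertical position within a list has no meaning. Medians ran from -0.40 (other NRF2 target genes) to 0.22 (cystine supply and glutathione synthesis), while single genes spread from -10.29 (Heph, 0 to 3 counts in the 4T1/4T1.2 pair) to 7.94 (Abcc3).

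In the list for selenoprotein synthesis, on which GPX4 and TXNRD1 depend, 3 of 11 genes were higher and 6 lower in the 4T1/4T1.2 pair. Thus 81.8% were called, beside 76.7% of all genes. Scly, which recycles selenium from selenocysteine, and Sephs1 were 2.23-fold and 1.79-fold higher (adjusted p = 1.39e-07 and 3.58e-07). Selenop, the secreted selenium carrier, was at 12.5 to 74.2 CPM in 66cl4 and 67NR and 0.0882 to 0.524 CPM in the 4T1/4T1.2 pair. Among 18 ATF4 target genes, 6 were higher and 7 lower (72.2% called, beside 76.7% of all genes). Cth and Slc7a11 were the highest and Sesn2 (8.91-fold, adjusted p = 3.48e-09) and Aldh1l2 (5.53-fold, adjusted p = 1.8e-08) the lowest of those named. Atf4 itself was at 176 to 298 CPM, with a pooled difference of 0.18 (adjusted p = 0.0620).

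The second question was how the lines of a pair differed from each other. In 4T1.2 over 4T1, 5 of the 10 genes were higher and 0 lower, beside 19.3% of all genes called in either direction, 9.37% called higher and 9.93% called lower. The libraries of 4T1.2 lay above those of 4T1 for 7 genes and below them for 1, beside 54.5% of all genes that did not overlap. In order of size these were Nqo1 (log2 0.93), Gclc (0.71), Slc7a11 (0.67), Acsl4 (0.61) and Nfe2l2 (0.35), and none reached a fold change of 2. The 5 that were not called included Gpx4 and Gclm. Because earlier results of these libraries were known when the 10 genes were chosen, the contrast with all genes does not test them as a set. Over all genes the count of 2687 became 1373 without 4T1.2 replicate 1 and 1428 without 4T1.2 replicate 2, and it ran up to 3107 over the 8 libraries left out in turn, with 4 to 7 of the 10 genes called.

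In 66cl4 over 67NR, 1 gene was higher (Acsl4) and 5 were lower (Nqo1, Hmox1, Gclm, Nfe2l2 and Slc7a11), beside 44.7% of all genes called, 22.2% higher and 22.4% lower. The libraries did not overlap for 9 genes, 2 higher and 7 lower, nor for 75.3% of all genes. Leaving out 67NR replicate 2 lowered the count over all genes from 6218 to 4143. The 5 lower genes are Nfe2l2 and 4 known targets of NRF2. Since the 10 genes were chosen as genes of this system, that make-up follows from the choice. Whether NRF2 activity differed was not tested. The calls of Nfe2l2 and Slc7a11 were lost when some single libraries were left out, and Gclm lay near the median of its chromosome. Gclc (-0.29, adjusted p = 0.0997) and Txnrd1 (-0.33, adjusted p = 0.0567) missed the threshold. Both lay near it. Txnrd1 passed at about the same size with DESeq2 (adjusted p = 0.0373), limma-voom (0.0497), no filter on low counts (0.0290) or at least 10 counts in every library (0.0477). It also passed without 4T1 replicate 1 (log2 -0.33) or 4T1 replicate 2 (-0.35). Without 66cl4 replicate 2 it passed at a larger difference (-0.49). Gclc passed without 4T1 replicate 1 (0.0217) or 4T1 replicate 2 (0.0149).

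**Figure D5:**
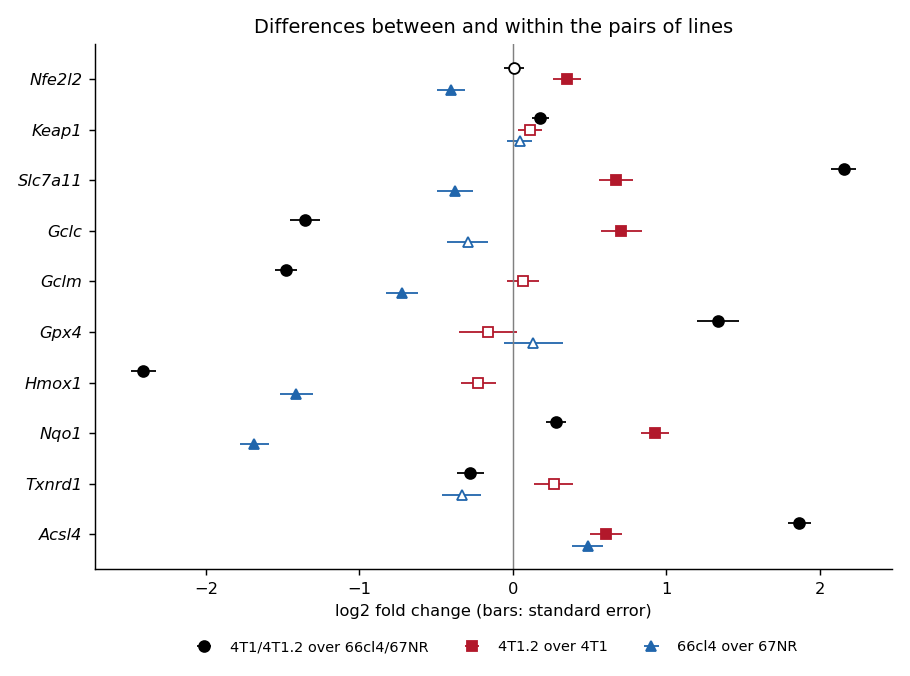
Log2 fold changes of the 10 genes with their standard errors, for the pooled comparison (circles), 4T1.2 over 4T1 (squares) and 66cl4 over 67NR (triangles). Filled symbols passed an adjusted p of 0.05 and open symbols did not. Differences between the pairs reached -2.41 (Hmox1) and 2.15 (Slc7a11), whereas Nfe2l2 and Nqo1 differed more within the pairs than between them.

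Single lines were also compared across the pairs, and these comparisons share libraries with those above and with each other. The number of the 10 genes called was 9 for 4T1.2 over 66cl4 (68.9% of all genes), 7 for 4T1.2 over 67NR (67.9%), 7 for 4T1 over 66cl4 (70.1%) and 9 for 4T1 over 67NR (68.2%). Slc7a11, Gpx4 and Acsl4 were higher and Gclc, Gclm and Hmox1 lower in all 4 of them. Nqo1 turned with the line chosen, since 4T1 was 1.58-fold above 66cl4 (adjusted p = 0.000147) and 2.04-fold below 67NR (adjusted p = 5.86e-06). In the joint test of any difference among the 4 lines all 10 genes passed, from Hmox1 (adjusted p = 5.72e-09) to Keap1 (adjusted p = 0.0449), as did 84.8% of all genes.

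The lines also differed in cell character. All 6 tested epithelial markers of 8 listed were higher in the 4T1/4T1.2 pair, with summed levels of 1475 to 2892 CPM against 465 to 720. In 66cl4 and 67NR, which the study describes as mammary tumour lines, Epcam and Cdh1 were at 0 to 0.155 CPM. Krt8 was at 463 to 606 CPM in the same lines and made up most of their sum. Krt18 was at 115 and 113 CPM in 66cl4 and 0.819 and 1.13 CPM in 67NR. Of 6 mesenchymal markers, 5 were lower and 1 (Vim) higher in the 4T1/4T1.2 pair, and their summed level was 5398 to 7453 CPM there and 3171 to 5403 CPM in the other lines. Cdh2 was at 0 to 0.0216 CPM in 4T1 and 4T1.2. Leucocyte markers summed to 8.42 to 25.9 CPM, with 3 of 4 tested genes higher and Lyz2 lower in the 4T1/4T1.2 pair (17.7 to 22.7 CPM in 66cl4 and 67NR), Adgre1 and Cd3e at 0 in every library and Ptprc at no more than 2 counts, and endothelial markers to 0.335 to 3.70 CPM. The part of the epithelial and mesenchymal difference in the values of the 10 genes was not tested.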

How the data were processed

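RNA-seq of 8 libraries from 4 mouse mammary tumour lines was analysed, with the groups taken from the labels. The libraries were made from total RNA with the TruSeq RNA v2 protocol. Per the labels, reads were counted with featureCounts on mm10; the study states alignment with Rsubread and counting on Entrez genes for its endothelial libraries and a similar analysis for these. The deposited values are the authors' raw read counts per gene, without normalization. The strand setting is not given in the sources used here.

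From these counts, 25275 of 27179 identifiers (93.0%) were matched to a RefSeq table of GRCm38. Of the 15269 genes kept by edgeR's filterByExpr, those lacking an entry and those that are predicted or ribosomal were dropped. The 13924 left hold all 10 described genes. Over the whole matrix, genes dropped for the annotation held 5.34% to 7.95% of a library's counts. Lines were compared in R 4.3.3 by the quasi-likelihood test of edgeR 4.0.16 (with limma 3.58.1), fitted to 1 mean per line after TMM scaling, and p-values were adjusted by Benjamini-Hochberg over all genes, with a threshold of 0.05. CPM and RPKM use TMM-scaled library sizes. Totals were 37159840 to 66269681 counts, and the common biological coefficient of variation was 9.74%. Libraries of a line correlated at 0.995 to 0.996 and differed by more than sampling noise (chi-square per degree of freedom 10.3 to 75.4). On simulated counts of the 13924 genes, the pooled test recovered 89 of 100 genes changed by a log2 of 1 and 98 of 100 changed by 2, with 13 false calls. For 66cl4 over 67NR the test recovered 85 of 100 and 94 of 100, with 20 false calls. Far fewer genes were changed there than the 76.7% called in the pooled data. These numbers therefore do not give the error rates in the data.

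Alternatives were DESeq2 1.42.0 and its size factors, limma-voom, other filters, no removal by annotation, a replicate block and leaving out each library. Promoter windows were taken from RefSeq on GRCm38, which held 8 of the 10 genes and none for Gclc and Hmox1, and shared 75-base stretches and overlapping genes from GENCODE M21. The genes and lists were chosen with earlier results of these libraries known. From each list, the named genes are up to 2 of the largest changes in each direction, in the pooled comparison and in 66cl4 over 67NR, among called genes with at least 5 CPM on average and no overlap between the groups; other genes are named as chosen after their values were seen. One listed gene, Peds1, had no entry.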

Additional observations from a re-analysis of the deposited data

How the results depend on the processing

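Over 15 alternatives and 7 comparisons, 997 of 1050 values of the 10 genes kept their direction and side of the threshold, 21 were no longer called, 21 became called and 11 turned direction. Of 210 counts of called genes, 207 stayed within 1.5 times the main count. The exceptions came from leaving out libraries, where the count over all genes ran from 1373 to 3107 in 4T1.2 over 4T1 and from 4143 to 6938 in 66cl4 over 67NR. The values that turned were not called and turned only when 1 library was left out: Nfe2l2 ran from -0.031 to 0.047 in the pooled comparison, from -0.10 to 0.049 in 4T1.2 over 67NR and from -0.036 to 0.11 in 4T1 over 66cl4, Gclm from -0.051 to 0.19 and Gpx4 from -0.44 to 0.18 in 4T1.2 over 4T1, Gpx4 from -0.031 to 0.32 in 66cl4 over 67NR, and Txnrd1 from -0.12 to 0.18 in 4T1.2 over 66cl4. Calls were lost for Keap1 (9 times), Nfe2l2 (5), Slc7a11 (4) and Txnrd1 (3), and gained for Txnrd1 (17), Gclc (2), Gpx4 (1) and Hmox1 (1). Outside the left-out libraries, limma-voom lost Slc7a11 in 66cl4 over 67NR (adjusted p = 0.0507), and Txnrd1 was gained 7 times, in 66cl4 over 67NR (no filter, the filter of 10 counts, DESeq2 and limma-voom, 0.0290 to 0.0497) and in 4T1.2 over 67NR (no filter, DESeq2 and limma-voom, 0.0361 to 0.0484). Causes were not tested.

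Whether equal replicate numbers mean a shared preparation is not given in the sources used here. Same-numbered libraries deviated together at correlations of -0.123 to 0.270, and such values cannot decide it. With a replicate block 10796 genes were called in the pooled comparison, 2886 in 4T1.2 over 4T1 and 6424 in 66cl4 over 67NR, with 9, 5 and 6 of the 10 genes, and no count moved past 1.5 times. How often the test finds differences as small as those of Keap1 and Txnrd1 was not tested.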
